A study of Arabidopsis thaliana with 4 samples.

Results

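The fasciclin-like arabinogalactan protein (FLA) genes FLA1 (AT5G55730), FLA2 (AT4G12730), FLA6 (AT2G20520), FLA7 (AT2G04780), FLA8 (AT2G45470), FLA9 (AT1G03870), FLA10 (AT3G60900), FLA11 (AT5G03170), FLA12 (AT5G60490) and FLA13 (AT5G44130) of Arabidopsis thaliana are described here across 4 seedling RNA-seq libraries. They are 10 of the 27416 gene rows of the tables and 10 of the 21 FLA genes of the genome, and were found by their locus codes. The set was chosen by a proposal made with the RPKM differences between the groups known, so the differences of these 10 genes are a description and carry no test. All seedlings were of the Col-0 ecotype, were cry1 mutants, without the photoreceptor cryptochrome 1 of blue light, and carried a transgene driven by the 35S promoter, which is active in most plant tissues. The group called CNT1 (2 libraries) had 35S::CNT1-NLS-YFP in the cry1 background, a fusion of CNT1, the N-terminal part of CRY1 that resembles photolyases, with a nuclear localisation signal and a yellow fluorescent protein. The group called CNT1-G283E (2 libraries) had 35S::CNT1-G283E-NLS-YFP in the same background, where the CNT1 part carries the G283E substitution. Seeds spent 3 days in the cold and 12 h in white light, then 4 days under blue light at 15 μmol/m2/s, on medium with 1% sucrose, to a stated growth time of 4.5 days. The comparison asks which genes CNT1 regulates in blue light. The labels do not say how many transgenic lines each group holds, and they list the replicates as separate samples without naming separate cultures, so the spread behind the p-values is that of these libraries and may be technical.

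FLA proteins are secreted to the cell surface. They combine fasciclin domains, which are known in animals for cell adhesion, with stretches rich in proline that are hydroxylated and then decorated with arabinogalactan sugars, and many are held at the plasma membrane by a glycosylphosphatidylinositol (GPI) anchor. In plants they are known from work on growing walls, on roots and on the secondary walls of stems, where FLA11 and FLA12 mark cells that deposit cellulose-rich secondary walls.

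Levels are given as RPKM, reads scaled by transcript length and by library depth. Comparisons between genes depend on the lengths used, and 20.3% of rows above 0 fit the length of an annotated transcript. The values rest on 28524534 and 28098772 reads in CNT1 replicates 1 and 2 and on 27065174 and 24436863 reads in CNT1-G283E replicates 1 and 2, depths that were recovered from the values. Differences are on the log2(RPKM + 1) scale, CNT1 minus CNT1-G283E, with the standard error (SE) of a limma fit over the 19201 genes that reached 1 RPKM in 2 or more libraries. A call is an adjusted p under 0.05 (limma with Benjamini-Hochberg adjustment). Where groups are said not to overlap, this only describes 2 against 2 libraries. The share of all genes without overlap was not determined. Of all genes tested, 60.0% were called, 29.0% lower and 31.1% higher in CNT1, and the median difference was 0.02. Green tissue markers were higher in CNT1 in 7 of 7 genes, with summed levels of 12620 and 12490 RPKM against 4256 and 4279 RPKM. Root markers were lower in 8 of 13 tested and higher in 0, with sums of 286.7 and 291.6 RPKM against 714.4 and 789.7 RPKM. The 8 were CASP1 to CASP5 and ESB1, genes of the Casparian strip, with MYB36 and PHO1, and the 5 root hair genes were not called. Xylem markers were lower in 8 of 8 (sums of 195.3 and 199.4 RPKM against 382.5 and 361.3 RPKM), phloem markers lower in 5 and higher in 1 of 6, and shoot epidermis markers lower in 1 and higher in 2 of 4, the latter count being 1 when CNT1 replicate 1, CNT1 replicate 2 or CNT1-G283E replicate 2 was left out. No marker was at 0 in all libraries. The part of organ or tissue composition in the FLA levels was not tested, and in these bulk samples fewer cells of a type and less RNA per cell cannot be told apart.

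Close relatives within the set are shown first, since they bear on how well reads can be told apart. FLA8 and FLA10 share 85.3% of their aligned amino acids and 84.0% of their aligned coding bases, and their longest identical run is 53 bases. FLA9 and FLA13 share 79.5% of aligned amino acids and 78.5% of aligned coding bases, with a longest run of 27 bases. The stretches below are coding sequence of TAIR10.1 on the gene's own strand, each run with 20 bases on both sides, at chr2:18743335-18743427 (minus strand) for FLA8, chr3:22500114-22500206 (minus strand) for FLA10, chr1:983061-983127 (minus strand) for FLA9 and chr5:17761360-17761426 (plus strand) for FLA13. Capitals mark the bases that differ between the 2 genes of a pair, 9 in FLA8 and FLA10 and 7 in FLA9 and FLA13.
FLA8: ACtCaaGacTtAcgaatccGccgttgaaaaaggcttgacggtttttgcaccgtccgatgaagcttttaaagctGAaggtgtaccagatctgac
FLA10: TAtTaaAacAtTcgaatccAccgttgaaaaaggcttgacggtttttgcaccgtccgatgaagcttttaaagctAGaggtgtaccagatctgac
FLA9: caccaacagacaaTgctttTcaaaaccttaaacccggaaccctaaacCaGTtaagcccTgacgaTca
FLA13: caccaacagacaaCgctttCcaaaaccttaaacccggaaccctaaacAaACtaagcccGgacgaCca

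The sources used here do not say how reads matching several genes were treated, so the split of reads between FLA8 and FLA10 is uncertain where reads fall in such runs. FLA11 and FLA12 share 56.0% of aligned amino acids, with a longest run of 14 bases, and FLA1 and FLA2 share 51.1%. FLA6 is closest to FLA9 (57.3%) and FLA7 to FLA12 (40.0%).

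Together the 10 genes summed to 761.9 and 759.5 RPKM in the CNT1 libraries and to 2177 and 2284 RPKM in the CNT1-G283E libraries. Their sum was 2.93-fold higher in CNT1-G283E, and 2.99-fold higher with FLA9 left out. This was 0.104% of all RPKM in each CNT1 library and 0.301% and 0.318% in the CNT1-G283E libraries. Of the 10 genes, 9 passed the filter on low values, 8 of these were called lower in CNT1, against 29.0% of all genes tested, and 0 were called higher. Their median log2 difference was -1.21. Because the set was proposed from this comparison, nothing is read from that count.

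**Figure D1:**
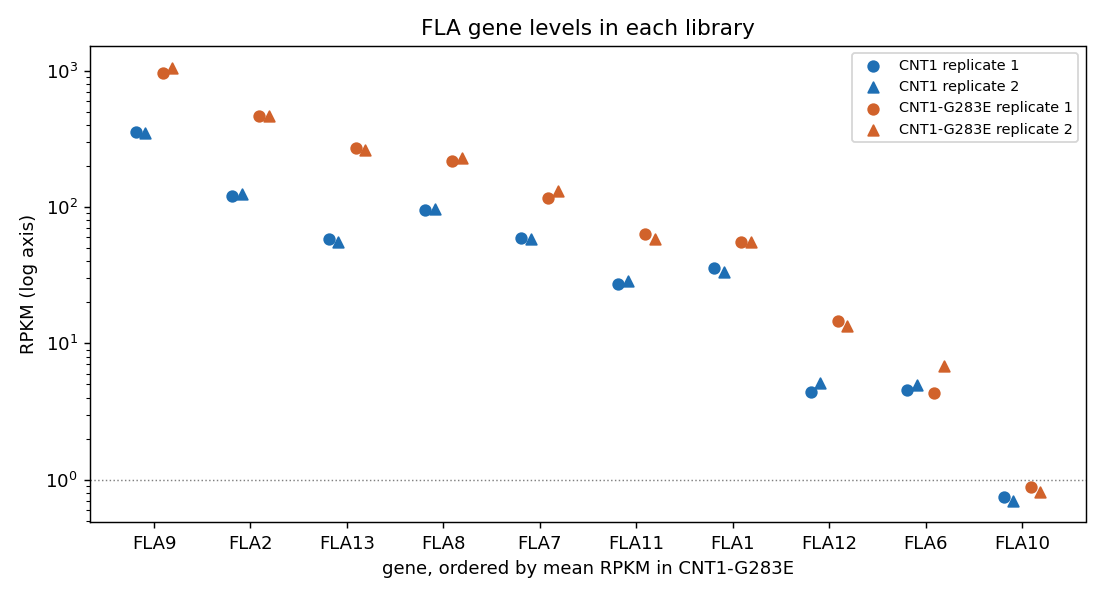
RPKM of the 10 FLA genes (log axis) in each of the 4 libraries, with circles for replicate 1, triangles for replicate 2, blue for CNT1 and orange for CNT1-G283E. The dotted line marks 1 RPKM. FLA9 is the most abundant gene in both groups, FLA10 lies below the line in every library, and the groups of FLA6 overlap.

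FLA9 was the most abundant FLA transcript in every library, at 355.7 and 350.7 RPKM in CNT1 and 965.7 and 1058 RPKM in CNT1-G283E. The groups did not overlap, and the means were 353.2 ± 3.56 and 1012 ± 65.1 RPKM (SD, n = 2), 2.86-fold higher in CNT1-G283E, with a log2 difference of -1.51 ± 0.052 (SE). Counted from the top among the genes tested, FLA9 stood at rank 253 in CNT1 and at rank 60 in CNT1-G283E. It made up 46.7% and 46.2% of the summed RPKM of the 10 genes in CNT1 and 44.4% and 46.3% in CNT1-G283E, so its share differed little.

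FLA13, the closest relative of FLA9, had the largest log2 difference of the 9 tested. It stood at 58.22 and 55.64 RPKM in CNT1 and at 269.9 and 263.5 RPKM in CNT1-G283E. All CNT1-G283E values lay above all CNT1 values, and the means of 56.93 ± 1.83 and 266.7 ± 4.55 RPKM (SD, n = 2) differed 4.68-fold, a log2 difference of -2.21 ± 0.042 (SE). Its rank moved from 2397 to 369 and its share of the summed RPKM of the 10 genes from 7.64% and 7.33% to 12.4% and 11.5%. The level of FLA9 over that of FLA13 was therefore 6.11 and 6.30 in CNT1 and 3.58 and 4.01 in CNT1-G283E.

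FLA2 was the second most abundant gene in both groups, at 120.9 and 124.6 RPKM in CNT1 and at 467.4 RPKM in both CNT1-G283E libraries. The groups were far apart beside the spread of their replicates, with means of 122.8 ± 2.63 and 467.4 ± 0.0075 RPKM (SD, n = 2), a ratio of 3.81 and a log2 difference of -1.92 ± 0.038 (SE). FLA1, known from work on shoot regeneration in culture and the closest relative of FLA2 in the set, stood at 35.59 and 33.23 RPKM in CNT1 and at 55.43 and 55.59 RPKM in CNT1-G283E. It had the smallest difference among the 8 called genes, 1.61-fold, with a log2 difference of -0.68 ± 0.049 (SE). The level of FLA1 over that of FLA2 was 0.294 and 0.267 in CNT1 and 0.119 in both CNT1-G283E libraries.

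FLA8 stood at 95.03 and 97.24 RPKM in CNT1 and at 218.2 and 228.3 RPKM in CNT1-G283E. Its groups did not overlap, the means of 96.13 ± 1.56 and 223.2 ± 7.15 RPKM (SD, n = 2) differed 2.32-fold, and the log2 difference was -1.21 ± 0.041 (SE). FLA10, its near copy, stood at 0.746 and 0.700 RPKM in CNT1 and at 0.884 and 0.805 RPKM in CNT1-G283E, from 40, 37, 45 and 37 reads. The 95% Poisson intervals of these levels, which cover counting error only, were 0.533 to 1.016, 0.493 to 0.965, 0.645 to 1.183 and 0.567 to 1.11 RPKM. These intervals overlap, while the levels themselves did not overlap between the groups. FLA10 failed the filter, and a difference in it was not tested. FLA8 was 127.4 and 138.8 times the level of FLA10 in CNT1 and 246.7 and 283.5 times in CNT1-G283E.

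FLA7 stood at 59.58 and 58.6 RPKM in CNT1 and at 117.3 and 132.0 RPKM in CNT1-G283E. The CNT1-G283E replicates lay further apart than those of CNT1, but above both of them. The means of 59.09 ± 0.693 and 124.7 ± 10.4 RPKM (SD, n = 2) differed 2.11-fold, with a log2 difference of -1.06 ± 0.058 (SE).

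FLA11 and FLA12 are the family members known from secondary walls, and stem strength and cellulose content are altered when both are lost. FLA11 stood at 27.1 and 28.69 RPKM in CNT1 and at 63.07 and 58.81 RPKM in CNT1-G283E, 2.19-fold higher in the latter, with a log2 difference of -1.10 ± 0.054 (SE). FLA12 stood at 4.42 and 5.11 RPKM in CNT1 and at 14.61 and 13.38 RPKM in CNT1-G283E, from 123, 140, 386 and 319 reads. Neither gene's groups overlapped, and FLA12 was 2.94-fold higher in CNT1-G283E, with a log2 difference of -1.38 ± 0.09 (SE). The level of FLA11 over that of FLA12 was 6.13 and 5.62 in CNT1 and 4.32 and 4.40 in CNT1-G283E. The end of FLA11 overlaps AT5G03160 on the opposite strand at chr5:752750-752805 (TAIR10.1), and the sources used here do not say whether counting used strand. The other 9 genes overlap no annotated gene.

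**Figure D2:**
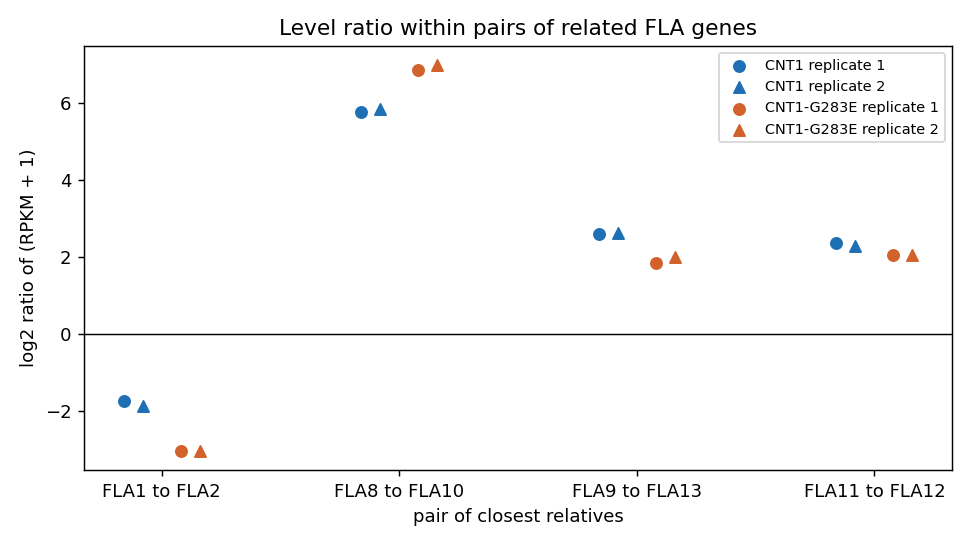
Log2 ratio of RPKM + 1 within the 4 pairs of genes that are each other's closest relative in the set, in each library (circles replicate 1, triangles replicate 2, blue CNT1, orange CNT1-G283E; 0 means equal levels). In CNT1-G283E the ratio moved towards FLA2, FLA8, FLA13 and FLA12. FLA10 lies below 1 RPKM in every library, so the added 1 sets much of the plotted FLA8 to FLA10 ratio.

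FLA6 was the exception among the genes tested. It stood at 4.56 and 4.94 RPKM in CNT1 and at 4.35 and 6.76 RPKM in CNT1-G283E, from 104, 111, 94 and 132 reads. The groups overlapped, with means of 4.75 ± 0.269 and 5.55 ± 1.71 RPKM (SD, n = 2), and FLA6 was not called (log2 difference -0.16 ± 0.164, SE). Its direction rested on 1 library: without CNT1-G283E replicate 2 the log2 difference was 0.11, not called, and without CNT1-G283E replicate 1 it was -0.43, called lower. In CNT1-G283E the level in replicate 2 was 1.56 times that in replicate 1, against a median of 1.03 over the 11813 tested genes with a mean of 2 to 25 RPKM. The 5 root hair genes of the root marker list, set beside FLA6 after its values were seen, had ratios of 1.27 to 1.59 between these libraries (COBL9 1.59, EXPA7 1.27, EXPA18 1.59, PRP3 1.56 and LRX1 1.45).

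In CNT1 the levels ordered the genes as FLA9, FLA2, FLA8, FLA7, FLA13, FLA1, FLA11, FLA12, FLA6 and FLA10, and in CNT1-G283E as FLA9, FLA2, FLA13, FLA8, FLA7, FLA11, FLA1, FLA12, FLA6 and FLA10. The replicates of neighbours in these orders overlapped in 1 case, FLA12 and FLA6 in CNT1. FLA7 and FLA13 lay close together in CNT1, with a ratio of means of 1.04, as did FLA11 and FLA1 in CNT1-G283E, with a ratio of 1.10. FLA13 thus moved from the fifth to the third place.

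Protein size did not separate the genes by response. FLA1, FLA2, FLA8 and FLA10 encode proteins of 403 to 424 residues, and the other 6 genes proteins of 246 to 254 residues. The median log2 difference was -1.21 among the 3 tested genes of the long class and -1.24 among the 6 of the short class, with ranges of -1.92 to -0.68 and -2.21 to -0.16. The proteins hold 9 to 32 dipeptides of proline with alanine, serine, threonine or valine of the kind that carries arabinogalactan in other such proteins (Ala-Pro, Pro-Ala, Ser-Pro, Thr-Pro and Val-Pro), the fewest in FLA2 and FLA11 and the most in FLA10. FLA2, with the second largest difference, and FLA11, with a difference near the middle, thus have the same number.

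The 250 bases before the annotated start of each gene were read for motifs bound by factors of light and auxin responses, on both strands. The G-box CACGTG was in 0 of 10 of these windows, against 6.6% of 26709 windows of the same length over the genome. Its ACGT core, which every G-box holds, was in 2 of 10, FLA9 and FLA10, against 44.2% over the genome. The auxin response element TGTCTC was in 2 of 10, FLA1 and FLA11, against 10.9%. A match is no evidence of a site in use, and a window without one says only that these letters are not in it. Shown 5′ to 3′ from TAIR10.1 are the windows of FLA13 and FLA2, the genes with the largest differences, and of FLA1 and FLA11, where capitals mark TGTCTC, whose first base lies 233 bases before the start of FLA1 and 193 before that of FLA11. They lie at chr5:17760615-17760864 (plus strand) for FLA13 and, on the minus strand, at chr4:7493081-7493330 for FLA2, chr5:22560542-22560791 for FLA1 and chr5:753658-753907 for FLA11.
FLA13: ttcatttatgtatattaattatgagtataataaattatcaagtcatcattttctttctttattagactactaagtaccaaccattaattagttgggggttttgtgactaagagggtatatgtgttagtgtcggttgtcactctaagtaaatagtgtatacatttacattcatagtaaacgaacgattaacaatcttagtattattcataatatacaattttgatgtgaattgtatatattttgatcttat
FLA2: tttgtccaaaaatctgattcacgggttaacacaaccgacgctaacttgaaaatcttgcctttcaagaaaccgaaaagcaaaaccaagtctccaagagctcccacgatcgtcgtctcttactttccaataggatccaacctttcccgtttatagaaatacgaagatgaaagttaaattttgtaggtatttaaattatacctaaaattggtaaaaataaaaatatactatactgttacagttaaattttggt
FLA1: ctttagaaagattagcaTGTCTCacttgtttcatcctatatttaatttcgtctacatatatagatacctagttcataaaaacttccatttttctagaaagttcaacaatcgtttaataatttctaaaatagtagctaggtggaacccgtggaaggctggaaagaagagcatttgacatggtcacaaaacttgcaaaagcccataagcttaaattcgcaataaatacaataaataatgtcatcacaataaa
FLA11: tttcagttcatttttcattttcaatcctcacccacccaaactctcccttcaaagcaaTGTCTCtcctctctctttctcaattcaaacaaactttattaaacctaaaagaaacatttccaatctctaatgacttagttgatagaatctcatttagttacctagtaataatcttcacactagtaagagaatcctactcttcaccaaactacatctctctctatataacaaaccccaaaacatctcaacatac

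The other 11 FLA genes are the rest of the family, outside a set that was proposed with the differences of this comparison known. Their differences were tested in the same fit, but they are no independent check of the set. Of the 7 that passed the filter, 5 were lower in CNT1, 1 was higher and 1 was not called, with a median log2 difference of -0.51, against a median of 0.02 and shares of 29.0% lower and 31.1% higher over all genes tested. FLA15 stood at 9.12 and 9.61 RPKM in CNT1 and at 25.52 and 26.42 RPKM in CNT1-G283E, a log2 difference of -1.38 ± 0.061 (limma adjusted p = 9.78e-07). FLA16, known from stem cellulose and stem height, stood at 28.73 and 29.05 RPKM against 67.91 and 74.02 RPKM, with a log2 difference of -1.27 ± 0.053 (limma adjusted p = 7.6e-07). A long non-coding RNA gene, AT2G35859, overlaps FLA16 on the opposite strand, so its value may hold reads of both. These differences were of the size seen in FLA12 and FLA8.

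FLA17 stood at 30.57 and 29.89 RPKM in CNT1 and at 43.9 and 45.89 RPKM in CNT1-G283E (log2 difference -0.56 ± 0.048, limma adjusted p = 3.24e-05). FLA18 stood at 74.83 and 75.96 RPKM against 104.2 and 112.2 RPKM (-0.51 ± 0.047, limma adjusted p = 4.65e-05). FLA5 was low, at 1.60 and 2.17 RPKM against 2.58 and 2.94 RPKM, and its call (-0.39 ± 0.132, limma adjusted p = 0.0355) was lost when CNT1 replicate 1 or CNT1-G283E replicate 2 was left out, with quantile scaling and without the filter. In all 3 genes the groups did not overlap, and in FLA17 and FLA18 the difference was smaller than in FLA1.

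FLA4, also called SOS5 and known from root growth on salt and from seed mucilage, was the gene not called. It stood at 19.84 and 18.66 RPKM in CNT1 and at 17.68 and 18.89 RPKM in CNT1-G283E, overlapping, with a log2 difference of 0.07 ± 0.062 (limma adjusted p = 0.359). AT1G15190, annotated as a fasciclin-like arabinogalactan family protein, went the other way, at 2.96 and 2.69 RPKM in CNT1 and 1.03 and 1.46 RPKM in CNT1-G283E (0.78 ± 0.131, limma adjusted p = 0.00138). FLA3, FLA14, FLA20 and FLA21 had at most 6 reads in any library and were not tested. FLA3 and FLA14 are known from pollen. All 21 FLA genes together were 2.70-fold higher in CNT1-G283E.

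**Figure D3:**
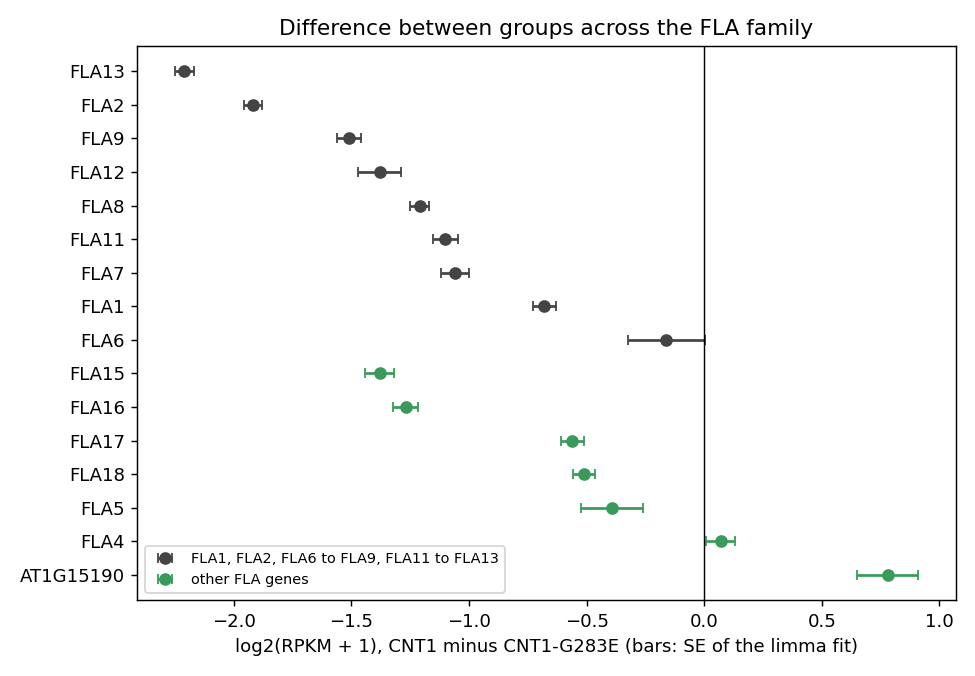
Log2 difference between CNT1 and CNT1-G283E (points, with the SE of the limma fit as bars) for the 16 FLA genes that passed the filter, black for the genes described here and green for the rest of the family. FLA13 lies furthest to the left at -2.21 and AT1G15190 furthest to the right at 0.78.

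Genes that act on FLA proteins were set beside them, and over all genes tested 29.0% were lower and 31.1% higher in CNT1. Prolyl hydroxylases, which make the hydroxyproline that arabinogalactan is attached to, went both ways. Of 10 tested, 4 were lower and 4 higher in CNT1, with a median log2 difference of 0.01. Among the 4 higher genes, AT4G35810 passed the filter only through CNT1, the group where it was high. It stood at 1.285 and 1.223 RPKM in CNT1 and at 0.339 and 0.141 RPKM in CNT1-G283E. AT5G18900 was lower, at 39.16 ± 0.365 against 49.8 ± 0.225 RPKM (SD, n = 2; log2 difference -0.34 ± 0.043, limma adjusted p = 0.000271), and AT5G66060 higher, at 24.58 ± 0.176 against 18.51 ± 0.335 RPKM (0.39 ± 0.052, limma adjusted p = 0.000378). Glycosyltransferases that build the arabinogalactan were lower in 1 and higher in 6 of 16 tested, with a median of 0.03. GLCAT14B, a glucuronosyltransferase, was higher in CNT1, at 11.44 ± 0.306 against 7.63 ± 0.359 RPKM (SD, n = 2; 0.53 ± 0.073, limma adjusted p = 0.000476). GALT31A, a galactosyltransferase, was the 1 lower gene (-0.43 ± 0.105, limma adjusted p = 0.0084), and this count was 0 with CNT1 replicate 1 left out and 2 with CNT1-G283E replicate 1 left out.

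Genes of GPI anchor synthesis were lower in 0 and higher in 5 of 8 tested, against 29.0% and 31.1% over all genes tested. The median was 0.22 and the differences were small. SETH2, a subunit of the enzyme of the first step, stood at 13.41 ± 0.32 against 11.05 ± 0.406 RPKM (SD, n = 2; 0.26 ± 0.066, limma adjusted p = 0.0106). The count of 5 fell to 1 when either CNT1 replicate was left out, to 2 without CNT1-G283E replicate 1 and to 3 without CNT1-G283E replicate 2.

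Among genes that act with FLA4 in roots or mucilage, MUM2, a beta-galactosidase of seed mucilage, was lower in CNT1, at 10.03 and 11.05 RPKM against 37.63 and 38.65 RPKM (log2 difference -1.76 ± 0.062, limma adjusted p = 3.72e-07). FEI2, a receptor-like kinase, was higher, at 21.29 and 20.65 RPKM against 17.55 and 16.93 RPKM (0.27 ± 0.056, limma adjusted p = 0.00399). FEI1 and FLY1 were not called, and the median of the 4 genes was -0.14.

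Secondary wall genes were compared because FLA11 and FLA12 are known from the same walls. Of 15 genes of secondary wall synthesis tested, 14 were lower in CNT1 and 0 higher, against 29.0% and 31.1% over all genes tested. The median log2 difference of the 15 was -0.95, beside -1.10 for FLA11 and -1.38 for FLA12. TBL29, a xylan acetyltransferase, stood at 7.82 and 8.19 RPKM against 22.14 and 20.58 RPKM (-1.31 ± 0.068, limma adjusted p = 2.13e-06). LAC4, a laccase of lignin formation, stood at 24.32 and 27.54 RPKM against 57.77 and 54.51 RPKM (-1.09 ± 0.066, limma adjusted p = 4.95e-06). FRA8, a glycosyltransferase of xylan, stood at 17.11 and 15.52 RPKM against 34.49 and 38.27 RPKM (-1.11 ± 0.071, limma adjusted p = 6.37e-06). CESA4, CESA7, CESA8 and LAC4 are also on the xylem marker list, whose summed level moved the same way. These lists therefore do not give separate observations.

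Regulators of the secondary wall were lower in 9 and higher in 0 of 11 tested, with a median of -0.52, and the 9 fell to 5 without CNT1 replicate 1. Over all genes tested, 29.0% were lower and 31.1% higher. Among the 9 lower genes, MYB83 passed the filter only through CNT1-G283E, the group where it was high. It stood at 0.839 ± 0.209 in CNT1 against 1.666 ± 0.581 RPKM in CNT1-G283E (SD, n = 2). VND6, MYB52 and MYB54, also called lower, lay near the 1 RPKM of the filter in CNT1, with means of 0.944, 1.1 and 1.103 RPKM. VND6 and VND7, which are on this list, are also on the xylem marker list. KNAT7, a homeodomain factor, stood at 5.29 ± 0.417 against 14.76 ± 0.316 RPKM (SD, n = 2; -1.33 ± 0.079, limma adjusted p = 4.53e-06). MYB46, a master switch of secondary walls, stood at 2.32 ± 0.425 against 5.77 ± 0.54 RPKM (-1.03 ± 0.121, limma adjusted p = 0.000189). NST2 and SND1, which switch on fibre walls in stems, were at 0 reads in every library, where a count of 0 allows up to 3 reads.

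Genes of primary wall cellulose, the wall of growing cells, were lower in 6 and higher in 3 of 9 tested. The shares over all genes tested were 29.0% and 31.1%. The median of this list was -0.23, beside a median of -1.21 over the 9 tested genes of the FLA set. CTL1, a chitinase-like protein of cellulose formation, stood at 555.8 and 551.7 RPKM against 816.8 and 818.1 RPKM (-0.56 ± 0.04, limma adjusted p = 1.21e-05). CESA1, a cellulose synthase, was higher in CNT1, at 181.2 ± 0.228 against 163.8 ± 1.53 RPKM (SD, n = 2; 0.14 ± 0.037, limma adjusted p = 0.0108). The count of 3 higher genes was 0 without CNT1 replicate 1 and 0 without CNT1 replicate 2.

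**Figure D4:**
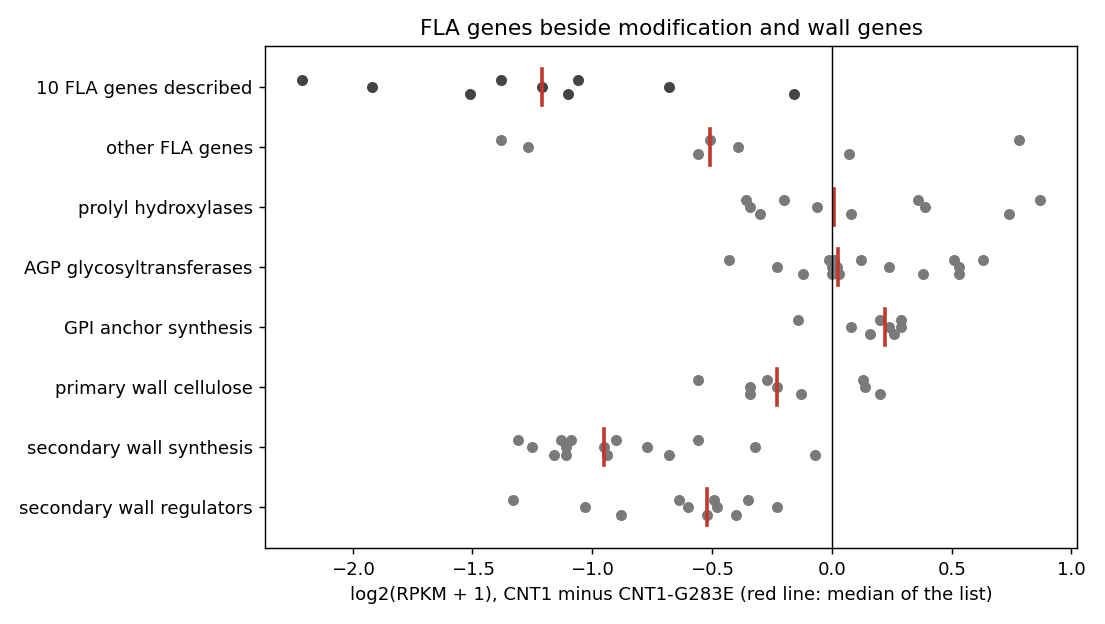
Log2 difference between CNT1 and CNT1-G283E for each tested gene (points) of 8 lists, with the median of each list as a red line. The FLA genes and the secondary wall genes lie mostly left of 0. Prolyl hydroxylases and glycosyltransferases lie on both sides, and GPI anchor genes lie mostly right of 0.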

How the data were processed

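Poly(A) RNA of whole seedlings was made into 4 Illumina libraries, per the labels' protocols. Bowtie2 2.2.2 and TAIR10 are named in the submitters' processing notes. For gene assignment, multi-mapping and strand, the method is not given in the sources used here. RPKM values were deposited by the authors for 27416 gene rows per library. At the recovered depths, 100% of 24360 rows above 0 were whole reads within 0.001 reads, 20.3% at the length of an annotated transcript, the others at a length fitted to the values, so that their reads are known up to a whole-number factor. More reads give a smaller counting error.

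Values were taken as log2(RPKM + 1), which understates changes of low genes, and tested with limma 3.58.1 in R 4.3.3, with an intensity trend, in a script tested on simulated data. Fold values are ratios of mean RPKM. Members and lists were chosen with earlier results of these data known. Named genes were the 10 genes, other FLA genes that passed the filter and at most 3 called genes per direction and pathway list by adjusted p, not all printed. Of 138 list entries, 5 were left out because the annotation gave neither the listed name nor a product accepted for the list. These were entries of GPI anchor synthesis and primary wall cellulose, and they may be true members of those lists. Names, coordinates and sequences come from the RefSeq annotation of TAIR10.1, which matched 26719 rows. Alternatives were 3 other scalings, a pseudocount of 0.1, no filter, a mean of at least 5 RPKM, no trend, limma-voom on recovered reads, the replicate block and leaving out each library.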

Additional observations from a re-analysis of the deposited data

How the results depend on the processing

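The 8 called FLA genes kept direction and call in 104 of 104 values over 13 alternatives. The 2.93-fold ratio of the summed RPKM of all 10 genes, computed under 7 of these (3 scalings and leaving out each library), was 2.86 to 3.00. FLA6 ranged from -0.43 (called lower, without CNT1-G283E replicate 1) to 0.11 (reversed, without CNT1-G283E replicate 2). Leaving out each library gave 0 to 2 lower genes of arabinogalactan glycosyltransferases, 1 to 3 higher genes of GPI anchor synthesis, 5 to 8 lower secondary wall regulators and 0 to 3 higher primary wall cellulose genes. Without the filter, these counts were 0 lower glycosyltransferases, 2 higher GPI anchor genes, 5 lower regulators and 2 lower genes of the FLA4 pathway. A mean of at least 5 RPKM, which leaves fewer genes, gave 0 higher other FLA genes, 2 higher prolyl hydroxylases, 0 lower glycosyltransferases and 1 lower regulator. Without the trend, 3 GPI anchor genes and 1 primary wall gene were higher and 2 FLA4 pathway genes lower. The last count was also 2 with upper-quartile or median-of-ratios scaling and with limma-voom on recovered reads. Higher shoot epidermis markers were also 1 with upper-quartile or median-of-ratios scaling, without the filter and without the trend, and higher root markers were 1 without CNT1-G283E replicate 2. The causes were not tested. In the left-out fits the lone library is assumed to vary like the other group. Libraries of the same number did not deviate together (correlation of deviations -0.02 over 19201 genes, from 2 pairs). With the replicate block, 8 of the 10 FLA genes were called lower and 11214 genes in all, against 11530 without it, and limma-voom on recovered reads called 11872. Depth limits FLA10 and the FLA genes with at most 6 reads.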

Other observations

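FLA6 differed between the CNT1-G283E libraries more than most genes of like level. The ratio of replicate 2 to replicate 1 was 1.56, and 0.957% of the 11813 tested genes with a mean of 2 to 25 RPKM had a ratio at least as high, with a 10th to 90th percentile of 0.888 to 1.20. The FLA6 levels in CNT1-G283E came from 94 and 132 reads in replicates 1 and 2. The genes compared were matched on RPKM and not on reads, so their counting error may differ from that of FLA6. In CNT1 the ratio for FLA6 was 1.08. The 5 root hair genes lay between 1.27 and 1.59 in CNT1-G283E and between 0.888 and 0.959 in CNT1. These genes were set beside FLA6 after its values were seen, and the source of the difference between the libraries was not tested. The CNT1-G283E libraries differed more from each other than the CNT1 libraries over all genes, with a chi-square of recovered reads per degree of freedom of 4.46 against 1.70.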
